A study of Mus musculus with 35 samples.

Results

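The genes described here are 5 connexins (Gja1, Gja4, Gja5, Gjb2 and Gjc1) and 2 pannexins (Panx1 and Panx2), the building blocks of gap junctions and of related single-membrane channels, in mouse testis. They were chosen by symbol, as probe sets annotated to these 7 genes on both array types. All 7 were among the 19938 genes named on the day 15 arrays, with 1 probe set each, and among the 18194 genes named on the day 25 arrays, with 13 probe sets. At day 15 all 7 passed the filter on low values and were tested among 16710 genes. At day 25 6 of the 7 were tested among 16305 genes, and Panx2 lay under the filter.

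The study crossed Akt1 genotype with neonatal exposure to PTU (6-N-propylthiouracil), a goitrogen that stops the thyroid from making its hormones, and its title names the blood-testis barrier. Total RNA of whole testes of male C57BL6 mice was hybridised singly, 1 mouse to an array. At each of postnatal days 15 and 25 there were 6 groups, namely Akt1 wild type, heterozygous and homozygous mutant mice, each unexposed or PTU-exposed. Day 15 has 18 arrays (MoGene 1.0 st v1), 3 in every group. Day 25 has 17 arrays (Mouse Genome 430 2.0), 3 in every group but the exposed homozygous, which has 2 because the submitters left 1 array out for quality. The labels do not give the PTU dose, the days of exposure, or which part of Akt1 the mutant allele lacks. The 2 ages are on different array types, and no level is compared between them or between probe sets. That each array is a separate mouse comes from the design text, so the spread within a group is spread between mice.

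Connexins assemble in rings of subunits that dock between neighbouring cells and pass ions and small molecules. In the seminiferous tubule, gap junctions join Sertoli cells to each other beside the tight junctions of the blood-testis barrier, and join Sertoli cells to germ cells. Gja1 encodes the main connexin of Sertoli and Leydig cells and is needed for germ cells to mature, while Gja4 and Gja5 are best known from blood vessel endothelium. Pannexins resemble gap junction proteins but mostly open to the outside of the cell, where they release ATP.

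Of the 5 promoters available 3 are shown, those of Gja1, Gjb2 and Panx1. These members passed the test in some comparison at both ages, as did Gja4, whose promoter is not shown. The sequences are from RefSeq, build GRCm38.p6, and run from 250 bases before to 50 after the gene's start, 5′ to 3′ on the gene's strand. They lie at chr10:56377050-56377349 on the + strand (Gja1), chr14:57104653-57104952 on the - strand (Gjb2) and chr9:15045429-15045728 on the - strand (Panx1). Capitals mark matches to 5 short motifs searched on both strands.

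Gja1: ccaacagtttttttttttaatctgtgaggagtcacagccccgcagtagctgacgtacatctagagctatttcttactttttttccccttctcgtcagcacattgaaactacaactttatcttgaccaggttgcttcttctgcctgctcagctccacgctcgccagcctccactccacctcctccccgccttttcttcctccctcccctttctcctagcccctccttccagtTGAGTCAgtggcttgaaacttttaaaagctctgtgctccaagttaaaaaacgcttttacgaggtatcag
Gjb2: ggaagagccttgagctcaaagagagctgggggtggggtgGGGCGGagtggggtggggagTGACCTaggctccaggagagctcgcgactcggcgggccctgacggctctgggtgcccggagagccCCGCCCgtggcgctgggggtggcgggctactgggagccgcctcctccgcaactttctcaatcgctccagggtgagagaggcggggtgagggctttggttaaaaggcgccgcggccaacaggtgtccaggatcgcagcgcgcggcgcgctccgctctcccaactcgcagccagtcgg
Panx1: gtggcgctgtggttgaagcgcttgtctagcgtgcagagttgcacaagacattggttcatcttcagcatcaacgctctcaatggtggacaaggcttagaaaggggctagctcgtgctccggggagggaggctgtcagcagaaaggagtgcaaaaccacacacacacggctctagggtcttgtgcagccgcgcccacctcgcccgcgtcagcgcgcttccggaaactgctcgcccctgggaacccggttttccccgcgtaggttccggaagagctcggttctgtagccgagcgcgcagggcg

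The Gja1 window held 1 match to the AP-1 motif TGANTCA, at bases 232 to 238, and 7.81% of 32851 promoters of the same length held this motif. In the Gjb2 window the capitals at bases 60 to 65 are AGGTCA, the thyroid hormone receptor half-site, on the opposite strand, which 16.3% of promoters held. Its other capitals, at bases 40 to 45 and 125 to 130, are GC boxes (GGGCGG), held by 35.7%. Panx1 had no match to any of these, nor to the FoxO motif GTAAACA (3.65% of promoters) or TATAAA (13.6%). The promoters of Gja4 and Gja5, not shown, each held 1 GC box and no other match. These matches describe letters only. Gjc1 and Panx2 had no entry. In gene order, Gjb2 lies between the connexin genes Gja3 and Gjb6.

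Some arrays stood apart. At day 25 both exposed homozygous arrays read 12.9 and 12.8 on the log2 scale for Spink8, an epididymal transcript, against 10.07 in exposed heterozygous array 2, 8.72 in exposed wild type array 3 and at most 6.40 in the other 13. The summed level of the 5 epididymal markers on that array type was 12.86 to 13.00 in the exposed homozygous group and 7.18 to 7.56 in the unexposed groups. The 3′ minus 5′ difference of the beta-actin control probe sets, a sign of RNA quality, was 0.95 to 1.44 in the homozygous arrays and 0.55 to 0.78 in the rest. At day 15 Spink8 was above 7 in unexposed wild type arrays 2 and 3 and exposed homozygous array 2. Car3, a fat transcript, read 8.57 in unexposed homozygous array 2 and at most 6.87 in the other day 15 arrays. Probe sets without a gene name split the day 15 arrays into a set of 12, which held all wild type arrays, and a set of 6. Akt1 itself did not separate the genotypes on most probe sets. At day 15 it read 9.34 to 9.71 in unexposed wild type and 9.04 to 9.40 in unexposed homozygous mice, with overlap. In exposed mice of that age it read 9.92 to 10.09 in wild type and 9.01 to 9.74 in homozygous, without overlap. Only 1 of 4 probe sets at day 25 put every homozygous array (8.01 to 8.56) below every wild type array (8.92 to 9.33).

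In unexposed day 15 testes, homozygous mice had more Gja1 and Panx1 mRNA than wild type, by 1.40 and 1.60 fold, and a little more Gja4. Of the 7 members, 3 were higher, 0 lower and 4 did not pass the test (limma, Benjamini-Hochberg adjusted p under 0.05 over all genes tested). The share called over all genes was 28.9%, with 14.6% higher, so the count is not far from the background. The members' median difference was 0.30, against 0.08 over all genes.

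Gja1 read 11.01, 11.20 and 11.00 in unexposed wild type mice and 11.64, 11.64 and 11.39 in unexposed homozygous mice. The arrays did not overlap, and the difference was 0.49 ± 0.13 (log2, SE, n = 3 and 3, limma adjusted p = 0.00889). Unexposed heterozygous mice, at 11.21, 10.99 and 11.01, lay with the wild type (-0.0021 ± 0.13, limma adjusted p = 0.994).

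Panx1, the more widely expressed pannexin, read 7.62, 7.76 and 7.60 in unexposed wild type, 8.01, 7.97 and 7.80 in heterozygous and 8.49, 8.35 and 8.16 in homozygous mice. Every heterozygous array was above every wild type array and every homozygous array was above every heterozygous array. Homozygous minus wild type was 0.68 ± 0.15 (limma adjusted p = 0.00222), and heterozygous minus wild type was 0.27 ± 0.15, which did not pass (adjusted p = 0.283). The Gja1 and Panx1 differences between homozygous and wild type passed in every alternative tried.

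Gja4 read 6.46, 6.13 and 6.46 in unexposed wild type and 6.56, 6.77 and 6.72 in unexposed homozygous mice, a difference of 0.33 ± 0.12 at an adjusted p of 0.05 that fell just under the threshold (limma). The groups did not overlap, but among the fits that left out 1 of the 18 arrays the call was kept only without exposed heterozygous array 2 or 3 or exposed homozygous array 1. Without unexposed wild type array 2, the lowest, the difference was 0.22 (limma adjusted p = 0.227). Panx2, at 7.40, 7.28 and 7.28 against 7.57, 7.59 and 7.43, did not overlap either and did not pass (0.21 ± 0.10, limma adjusted p = 0.128). Averaged over both exposures Panx2 was higher in homozygous mice by 0.24 ± 0.07 (adjusted p = 0.0182, 0.0601 without exposed wild type array 1) and Panx1 by 0.38 ± 0.10 (adjusted p = 0.0133), where 28.3% of all genes passed and 13.4% were higher. Within the first array set, and without the arrays high in Spink8, these averages did not pass (Panx1 0.33, adjusted p = 0.0657, and 0.40, 0.0871; Panx2 0.25, 0.112, and 0.18, 0.224). The first of these fits has 1 exposed homozygous array and the other has 1 unexposed wild type array, so the lone array is assumed to vary like the other groups, and the Panx1 difference stayed about as large.

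Cell type markers moved with these differences. In the same comparison all 7 spermatocyte markers were lower in homozygous mice, 5 of 9 Sertoli markers, 4 of 7 spermatogonial markers and 3 of 8 endothelial markers were higher, and the summed spermatocyte level was 11.98 to 12.53 against 13.62 to 13.95 in wild type. Of the Leydig markers 1 of 5 was higher, and their summed level was 11.44 to 12.19 against 10.31 to 11.09 without overlap, while 2 of 7 macrophage markers were lower. Their part in the connexin differences was not tested. In whole testis, fewer cells of a type and less RNA per cell cannot be told apart, here or below.

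Gjb2 and Panx1 rose after PTU in wild type testes at day 15. Of the 7 members these 2 were higher, 0 were lower and 5 did not pass, where 15.3% of all genes were called (6.53% higher). The median was 0.26 over the members and 0.03 over all genes. These differences use the same unexposed wild type arrays as the genotype comparison.

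Gjb2, a connexin best known from epithelia and the inner ear, read 6.31, 6.61 and 6.22 in unexposed and 6.79, 6.93 and 7.22 in exposed wild type mice. All 3 exposed arrays were above all 3 unexposed, by 0.60 ± 0.15 (1.52 fold, limma adjusted p = 0.0121). Panx1 went from 7.62, 7.76 and 7.60 to 7.96, 8.44 and 8.24, again without overlap, by 0.55 ± 0.15 (1.47 fold, adjusted p = 0.0162).

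Both calls turned on single arrays. Gjb2 did not pass without unexposed wild type array 1 (0.57, limma adjusted p = 0.0579), unexposed array 3 (0.52, 0.0636) or exposed array 3 (0.48, 0.0784). For Panx1 the same held without unexposed array 1 (0.54, adjusted p = 0.0656), unexposed array 3 (0.52, 0.0626), exposed array 2 (0.44, 0.105) or exposed array 3 (0.54, 0.062). Neither passed without the arrays high in Spink8, which leaves 1 unexposed wild type array (Gjb2 0.67, adjusted p = 0.0917, and Panx1 0.59, 0.154). The difference was between 0.44 and 0.67 throughout these fits.

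Gjc1, a connexin of smooth muscle and conducting tissue, also had every exposed wild type array (9.37, 9.55 and 9.50) above every unexposed one (9.22, 9.20 and 9.23). Its difference was 0.26 ± 0.09 and missed the threshold (limma adjusted p = 0.0634), but it passed within the first array set (0.0264), without exposed wild type array 1 (0.31, 0.0456) and without exposed homozygous array 1 (0.26, 0.0417). Gja1, at 11.30, 11.42 and 11.35 in exposed wild type mice, was likewise above all unexposed arrays, with 0.29 ± 0.13 (adjusted p = 0.146). In wild type mice, 4 of 7 spermatocyte markers were lower and 4 of 9 Sertoli and 4 of 7 spermatogonial markers higher after PTU. Macrophage markers were lower in 5 of 7, with a summed level of 10.15 to 10.55 against 10.93 to 11.21 unexposed. Whether they bear on the 4 genes was not tested.

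No member passed for PTU in heterozygous or homozygous testes at day 15 (limma, 0 of 7 in each, with 2 and 1 at an unadjusted p under 0.05), where 0.569% and 4.96% of all genes were called. In exposed heterozygous mice Gja1 read 11.49, 11.50 and 11.24, above the unexposed 11.21, 10.99 and 11.01, by 0.34 ± 0.13 (adjusted p = 0.245). In exposed homozygous mice Gja1 read 11.32, 10.93 and 11.49 and overlapped the unexposed arrays (-0.31 ± 0.13, limma adjusted p = 0.164).

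Averaged over the 3 genotypes, 0 of 7 passed, where 2001 of 16710 genes (12%) were called, and 4 had an unadjusted p under 0.05. The nearest were Gjb2 (0.26 ± 0.09, limma adjusted p = 0.0598), Panx1 (0.24 ± 0.08, 0.0734) and Gjc1 (0.15 ± 0.05, 0.0745). With array weights these 3 and Gja5, an endothelial connexin, passed.

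**Figure D1:**
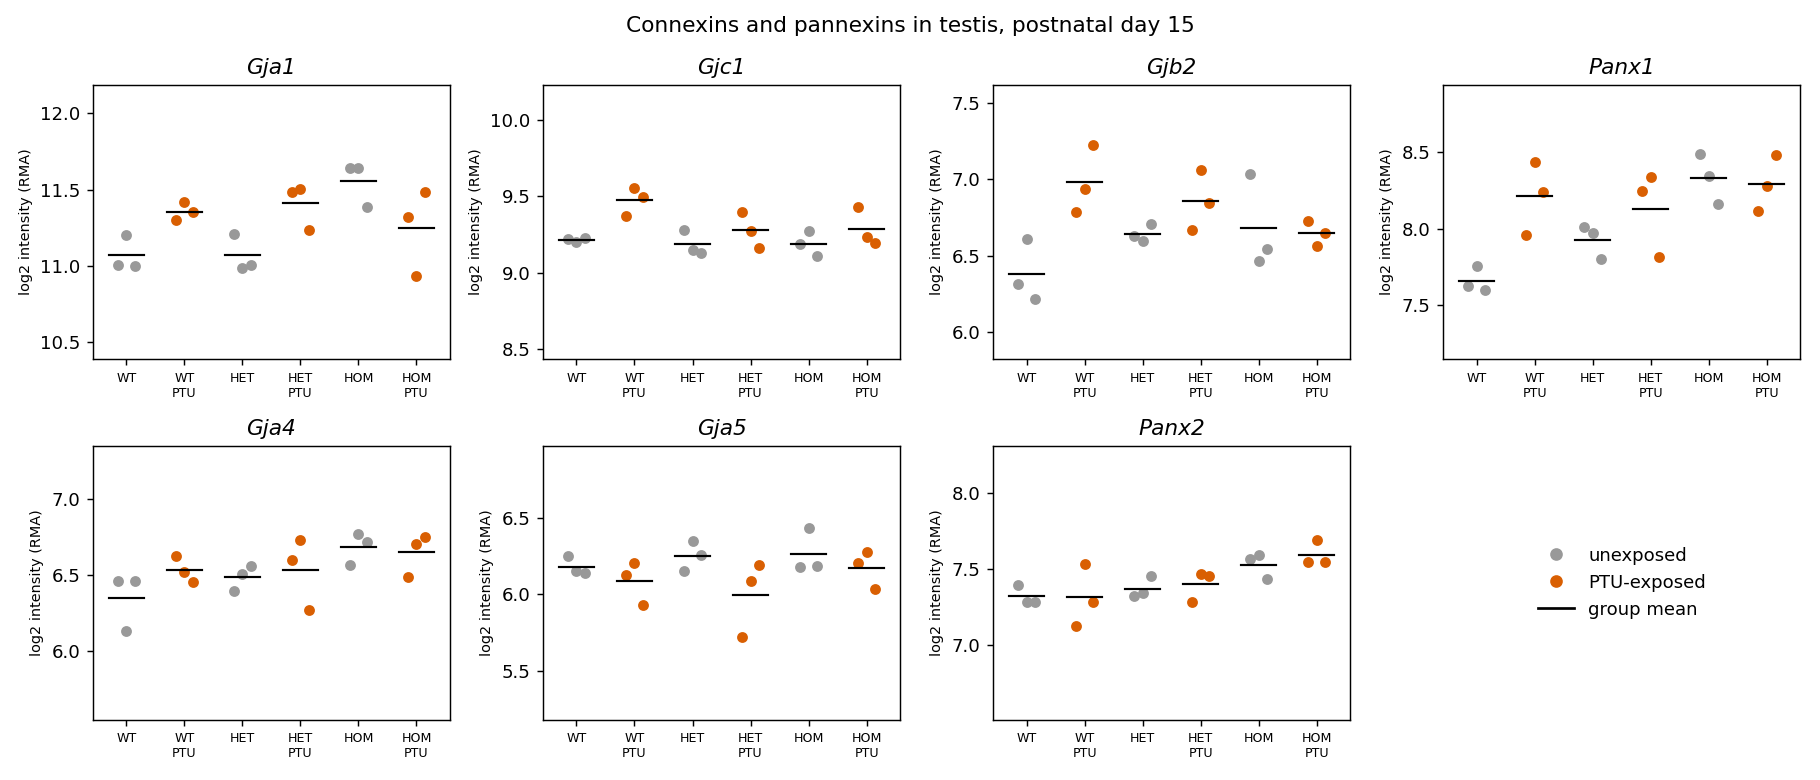
Level of each gene (vertical axis, log2 RMA intensity) in the 18 day 15 arrays by group (horizontal axis: WT wild type, HET heterozygous, HOM homozygous); points are arrays, bars are group means, and vertical scales differ between panels. The group means of Gja1 and Panx1 are lowest in unexposed wild type and heterozygous mice and highest in unexposed homozygous mice.

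The PTU response of Gja1 and Gjb2 at day 15 differed between homozygous and wild type mice. The PTU difference of Gja1 was 0.29 in wild type and -0.31 in homozygous mice, neither past the test by itself, and the difference of these responses was -0.59 ± 0.18 (limma interaction, adjusted p = 0.033). Gjb2 gave 0.60 and -0.03, a difference of -0.64 ± 0.21 (adjusted p = 0.0494). Panx1 gave 0.55 and -0.04, a difference of -0.59 ± 0.21 that missed the threshold (adjusted p = 0.0576). Of the 7 members 2 passed, both lower, where 16.4% of all genes passed and 8.13% were lower.

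The interaction of Gja1 did not pass without any 1 of 7 arrays, where its value lay between -0.60 and -0.44. These were unexposed wild type arrays 1 (-0.56, limma adjusted p = 0.0844) and 3 (-0.56, 0.0791), exposed wild type arrays 2 (-0.56, 0.0754) and 3 (-0.60, 0.0633), unexposed homozygous arrays 1 (-0.55, 0.0841) and 2 (-0.55, 0.0764), and exposed homozygous array 2 (-0.44, 0.0783). Without the arrays high in Spink8 it was -0.50 (adjusted p = 0.138). The Gjb2 interaction was lost without any 1 of 11 arrays, from -0.46 without unexposed homozygous array 1 (limma adjusted p = 0.139) to -0.66 without exposed wild type array 2 (0.0769). The other 9 were unexposed wild type arrays 1 and 3, exposed wild type array 3, the 3 unexposed heterozygous arrays, exposed heterozygous array 3 and exposed homozygous arrays 2 and 3. For the heterozygous interaction 0 of 7 passed (limma, 0 at an unadjusted p under 0.05), with 0.449% of all genes called.

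In exposed mice at day 15, no member differed between homozygous and wild type, and no gene of 16710 did (limma, 0%, 4266 genes and 2 members at an unadjusted p under 0.05). Same-numbered arrays of these groups deviated together (correlations of 0.14 to 0.56), though not every array correlated best with its own number. With the number as a block 750 genes passed but still 0 members. Gjb2 had every exposed homozygous array (6.73, 6.56 and 6.65) below every exposed wild type array, by -0.34 ± 0.15 (adjusted p = 0.177), and Panx2 every one (7.55, 7.69 and 7.55) above, by 0.28 ± 0.10 (adjusted p = 0.119). Heterozygous and wild type mice did not differ in any member unexposed (3.95% of all genes called, 0 members at an unadjusted p under 0.05), exposed (0% of all genes, 887 and 1 member at an unadjusted p under 0.05) or averaged (0.999%, 0 members at an unadjusted p under 0.05). For the unexposed groups same-numbered arrays also deviated together, and with the number as a block 1303 genes in place of 660 passed and still 0 members.

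Over the 6 groups at day 15 the order of mean Gja1 levels was unexposed homozygous (11.56), exposed heterozygous (11.41), exposed wild type (11.35), exposed homozygous (11.25) and then unexposed wild type and heterozygous (both 11.07). The arrays of each neighbour in that order overlapped. For Panx1 it was unexposed homozygous (8.33), exposed homozygous (8.29), exposed wild type (8.21), exposed heterozygous (8.13), unexposed heterozygous (7.93) and unexposed wild type (7.66), and only the last step had no overlap. Gja5 stayed between 5.72 and 6.44 in all 18 arrays and passed in no comparison.

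**Figure D2:**
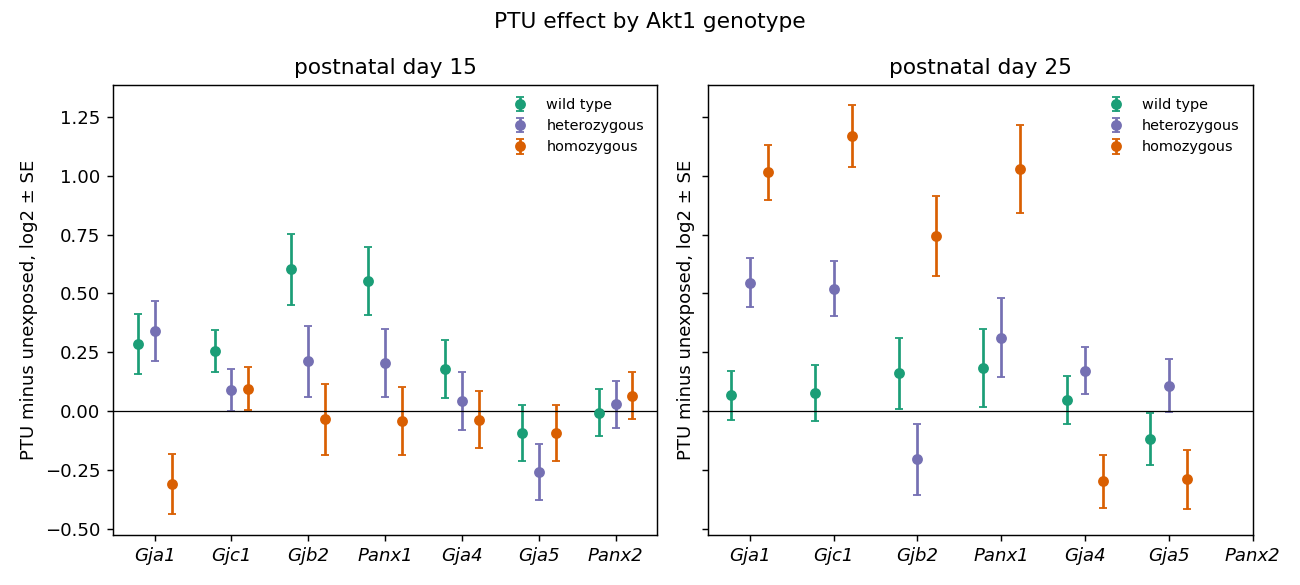
PTU-exposed minus unexposed difference (vertical axis, log2 with SE bars) of each gene (horizontal axis) in wild type, heterozygous and homozygous testes, at day 15 (left) and day 25 (right, where Panx2 was not tested). At day 15 the wild type differences of Gjb2 and Panx1 are the highest points, at 0.60 and 0.55, and at day 25 the homozygous differences of Gjc1, Panx1 and Gja1 are, at 1.17, 1.03 and 1.01.

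At day 25 no connexin or pannexin tested passed for PTU in wild type testes (limma, 0 of 6, and 0 at an unadjusted p under 0.05), and no gene did (0%, 978 at an unadjusted p under 0.05). Gja1 read 11.23, 11.24 and 11.51 unexposed and 11.34, 11.42 and 11.43 exposed, a difference of 0.07 ± 0.10. Only Panx1 had exposed arrays (7.09, 7.19 and 7.19) all above the unexposed ones (6.91, 7.04 and 6.97), by 0.18 ± 0.17 (limma adjusted p = 0.953).

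In heterozygous testes at day 25, PTU was accompanied by more Gja1 and Gjc1. These 2 of 6 members were higher and 0 lower, with 18.7% of all genes called and 11.5% higher. Gja1 read 10.92, 10.66 and 10.84 unexposed and 11.23, 11.56 and 11.26 exposed, without overlap, a difference of 0.55 ± 0.10 (1.46 fold, limma adjusted p = 0.00461). The array at 11.56 is exposed heterozygous array 2, which was high in Spink8 (10.07). Gjc1 went from 9.23, 8.97 and 9.11 to 9.66, 9.67 and 9.54, also without overlap, by 0.52 ± 0.12 (1.43 fold, adjusted p = 0.00911), but at 0.45 without unexposed heterozygous array 2 (adjusted p = 0.0563). The other Gjc1 probe set, 1447787_x_at, did not pass (0.34 ± 0.12, limma adjusted p = 0.0787).

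Panx1 had no overlap in heterozygous mice either, at 6.81, 6.78 and 6.68 against 7.09, 6.99 and 7.13, a difference of 0.31 ± 0.17 that did not pass (limma adjusted p = 0.208). Its SE in the fit of all groups includes the spread of the 2 exposed homozygous arrays (7.28 and 8.28), and without those arrays the same difference passed (adjusted p = 0.00558).

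Unexposed heterozygous mice were the low group for Gja1 and Gjc1 at day 25. Against unexposed wild type, Gja1 was lower by 0.52 ± 0.10 on the log2 scale (-0.52, 0.70 fold, limma adjusted p = 0.00449) and Gjc1 by 0.58 ± 0.12 (-0.58, 0.67 fold, adjusted p = 0.0049), with no overlap in either. These were 2 of 6 members, with 22.6% of all genes called and 14.3% lower, and they share the unexposed heterozygous arrays with the PTU comparison. Panx1, at -0.22 ± 0.17, did not pass (adjusted p = 0.381) but did without the exposed homozygous arrays (0.0289). After exposure heterozygous and wild type mice did not differ in any member (limma, 0 of 6, 0 at an unadjusted p under 0.05), with 0.0920% of all genes called. Averaged over exposures Gja1 (-0.28 ± 0.07, adjusted p = 0.0172, 0.0522 at -0.24 without unexposed wild type array 3) and Gjc1 (-0.36 ± 0.08, adjusted p = 0.0104) were lower, with 18.8% of all genes called and 12.2% lower.

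Spermatid and Sertoli markers moved with these arrays. The summed spermatid marker level was 14.48 to 16.12 in unexposed heterozygous mice, 12.02 to 13.93 in unexposed wild type and 11.32 to 12.98 in exposed heterozygous mice. Between unexposed heterozygous and wild type mice 4 of 6 spermatid markers were higher and 4 of 10 Sertoli markers lower, and after PTU in heterozygous mice 6 of 6 spermatid markers were lower and 4 of 10 Sertoli markers higher. Their part in the Gja1 and Gjc1 differences was not tested.

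Unexposed homozygous mice at day 25 had Gja1 at 11.16, 11.07 and 11.13 and Gjc1 at 9.13, 9.34 and 9.46, below all 3 wild type arrays of each gene. Neither passed, with -0.20 ± 0.10 (limma adjusted p = 0.204) for Gja1 and -0.37 ± 0.12 (adjusted p = 0.0504) for Gjc1. The count was 0 of 6, with 1 at an unadjusted p under 0.05, where 12.7% of all genes were called. Without the exposed homozygous arrays, Gjc1 (-0.37, adjusted p = 0.0193) and Panx1 (-0.22, adjusted p = 0.0369) passed. Spermatid markers were higher here too (4 of 6, summed level 14.44 to 15.28).

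**Figure D3:**
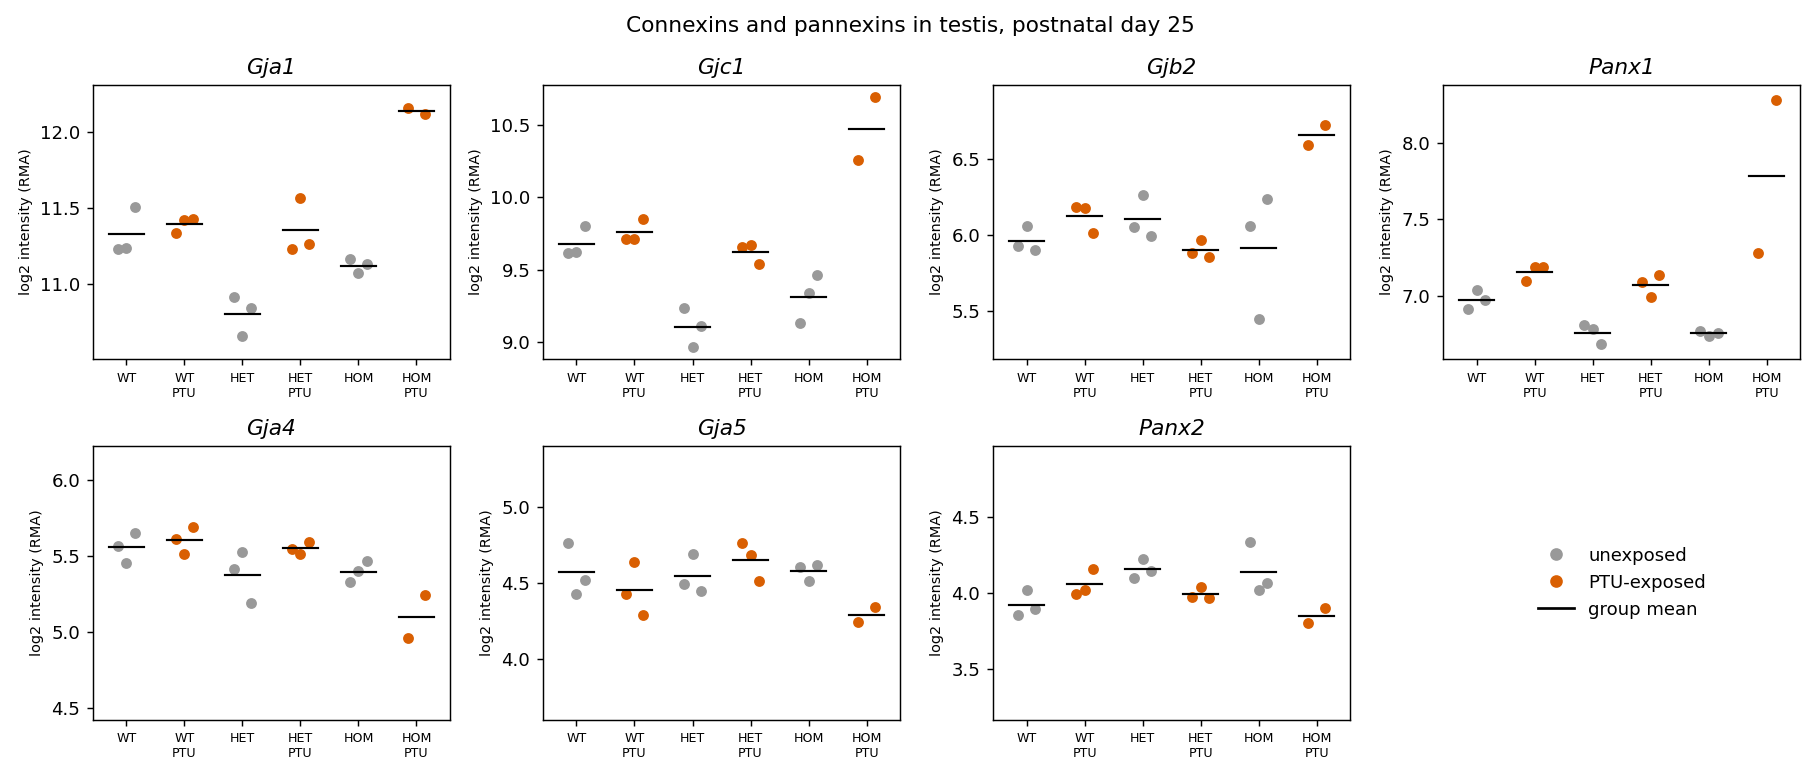
Level of each gene (vertical axis, log2 RMA intensity, the brightest probe set of each) in the 17 day 25 arrays by group (horizontal axis, as at day 15); points are arrays and bars group means, and vertical scales differ between panels. The 2 exposed homozygous arrays are the highest for Gja1 (12.16 and 12.11), Gjc1, Gjb2 and Panx1.

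Exposed homozygous testes at day 25 had the highest Gja1, Gjc1, Panx1 and Gjb2 and the lowest Gja4 and Gja5 means of the 6 groups. Against unexposed homozygous mice, all 6 members tested passed, 4 higher and 2 lower, and 1 of the lower (Gja5) lay under the filter value in every array of both groups. In that comparison 71.2% of all genes passed (38.4% higher, 32.8% lower), so such a count is near the background. The members' median was 0.88, against 0.02 over all genes. This group is the one of 2 arrays in which epididymal transcripts were high, and without both arrays no value can be given for it.

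Gja1 read 12.16 and 12.11, above all other 15 arrays, and its difference from unexposed homozygous mice was 1.01 ± 0.12 (2.02 fold, limma adjusted p = 2.48e-06). Gjc1 read 10.26 and 10.69, also above all other arrays, with 1.17 ± 0.13 (2.25 fold, adjusted p = 2.15e-06). Without either exposed array both still passed, in fits where the 1 exposed array left is assumed to vary like the other groups.

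Panx1 read 7.28 and 8.28 against 6.77, 6.74 and 6.76, a difference of 1.03 ± 0.19 (limma adjusted p = 1.58e-04) that rested largely on 1 array. Without exposed homozygous array 2 it was 0.53 (adjusted p = 3.32e-04). Gjb2 read 6.59 and 6.73 against 6.06, 5.45 and 6.24, without overlap, a difference of 0.74 ± 0.17 (1.67 fold, limma adjusted p = 0.00109).

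The endothelial connexins went the other way. Gja4 read 4.96 and 5.24 against 5.32, 5.40 and 5.46, a difference of -0.30 ± 0.11 (limma adjusted p = 0.0277). It did not pass without exposed homozygous array 1 (-0.15, adjusted p = 0.29) or unexposed homozygous array 2 (-0.29, 0.0524) or 3 (-0.26, 0.0769). Gja5 read 4.24 and 4.34 against 4.61, 4.51 and 4.62, with -0.29 ± 0.12 (limma adjusted p = 0.0486). It was above the filter value of 4.76 in 2 of 17 arrays, 1 unexposed wild type and 1 exposed heterozygous, and in no homozygous array, so the difference is one between levels at the floor of the filter. With no filter its adjusted p was 0.0515, and it lost its call in 11 of the 17 fits that left out 1 array, where it ranged from -0.34 to -0.24. These arrays were all 5 homozygous ones, unexposed wild type 3, exposed wild type 1, unexposed heterozygous 1 and 3 and exposed heterozygous 1 and 2. Of 8 endothelial markers 3 were higher and 0 lower after PTU in homozygous mice, and their part in the Gja4 and Gja5 values was not tested.

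Against exposed wild type mice the exposed homozygous group showed the same directions, and the 2 comparisons share its 2 arrays. Gja1 (0.74 ± 0.12, limma adjusted p = 7.35e-05), Gjc1 (0.72 ± 0.13, 2.54e-04), Panx1 (0.63 ± 0.19, 0.00889) and Gjb2 (0.53 ± 0.17, 0.0129) were higher and Gja4 lower (-0.50 ± 0.11, 0.00126), so 5 of 6 passed, with 61.1% of all genes called (32.7% higher, 28.4% lower). Gja5 did not pass (-0.16 ± 0.12, adjusted p = 0.271). Panx1 was 0.12 (adjusted p = 0.322) without exposed homozygous array 2 and 1.13 without array 1, and Gjb2 0.47 (0.0904) without array 2. With the beta-actin 3′ minus 5′ difference as a covariate none of the 5 passed. The values were 0.73 for Gja1 (limma adjusted p = 0.0799), 0.11 for Gjc1 (0.729), -0.050 for Panx1 (0.937), 0.31 for Gjb2 (0.581) and -0.78 for Gja4 (0.0533). That difference was 0.95 to 1.44 in the homozygous arrays and 0.55 to 0.78 in the rest. A fit of homozygous against wild type mice with this covariate therefore cannot separate it from genotype. Averaged over exposures, homozygous mice had more Gja1 (0.27 ± 0.08, adjusted p = 0.0125) and less Gja4 (-0.33 ± 0.08, adjusted p = 0.00313; with the beta-actin covariate -0.57, 0.30), with 42.4% of all genes called (20.6% higher, 21.8% lower). This Gja1 average joins -0.20 in unexposed and 0.74 in exposed mice, was -0.030 (limma adjusted p = 0.788) as the mean of the gene's probe sets, and did not pass with array weights (0.25, 0.115) or the beta-actin covariate (0.26, 0.771).

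The PTU response at day 25 differed between homozygous and wild type mice for 4 of 6 members, all higher in the homozygous, with 59.4% of all genes passing and 33.1% higher. The interaction was 1.09 ± 0.18 for Gjc1 (limma adjusted p = 1.45e-04), 0.95 ± 0.16 for Gja1 (1.66e-04), 0.85 ± 0.25 for Panx1 (0.00901) and 0.58 ± 0.23 for Gjb2 (0.0378). Panx1 was 0.34 (0.0276) without exposed homozygous array 2 and 1.35 without array 1. The Gjb2 interaction was lost without any 1 of 6 arrays, with 0.35 (adjusted p = 0.0548) without unexposed homozygous array 2, the array at 5.45. It was also lost without exposed homozygous array 2 (0.52, 0.118), unexposed wild type array 1 (0.60, 0.0523) or 2 (0.53, 0.0755), and exposed wild type array 2 (0.61, 0.0507) or 3 (0.52, 0.0783). For the heterozygous interaction 0 of 6 members passed (limma, 2 at an unadjusted p under 0.05), as did 0% of all genes (2982 at an unadjusted p under 0.05). Gja1 had 0.48 ± 0.15 (adjusted p = 0.139) and Gjc1 0.44 ± 0.17 (adjusted p = 0.182) there.

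The PTU average over the 3 genotypes at day 25 gave 4 of 6 members higher, with 63.9% of all genes called and 36.3% higher. They were Gja1 (0.54 ± 0.06), Gjc1 (0.59 ± 0.07), Panx1 (0.51 ± 0.10) and Gjb2 (0.23 ± 0.09, limma adjusted p = 0.0343). Over wild type and heterozygous mice alone, without the exposed homozygous arrays, Gja1 was 0.31 (limma adjusted p = 0.0143), Gjc1 0.30 (0.0131) and Panx1 0.25 (0.00969), while Gjb2 was -0.020 (0.919). The Gjb2 average was also lost without any 1 of 8 arrays, where it stayed at 0.21 to 0.23, namely unexposed wild type 1 and 3, exposed wild type 1 and 2, unexposed heterozygous 1 and 3, exposed heterozygous 2 and exposed homozygous 2.

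Other tissue and cell markers moved with the exposed homozygous arrays at day 25. Of the 4 epididymal markers tested 3 were higher than in unexposed homozygous mice, as were 2 of 4 fat markers. The summed fat level was 9.62 to 10.68 in exposed and 8.55 to 9.07 in unexposed homozygous mice. In wild type mice it was 8.80 to 12.02 exposed and 8.21 to 8.35 unexposed, with 0 of 4 past the test. The summed spermatid level was 8.99 to 9.62 against 14.44 to 15.28, with 6 of 6 lower. Of the somatic lists, 7 of 10 Sertoli and 4 of 6 peritubular myoid markers were higher (1 of each lower), as were 7 of 7 spermatogonial markers, while 2 of 5 Leydig markers were lower and the summed Leydig level was 10.59 to 11.06 against 12.26 to 13.24. Their part in the connexin and pannexin values was not tested, and with 2 arrays the epididymal signal and the group cannot be told apart.

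The several probe sets of Gja1 and Gjc1 at day 25 were fitted with every probe set as its own feature. For Gja1, 5 of 6 were higher after PTU in homozygous mice, with differences of 0.58 to 1.01, and 4 of 6 were higher after PTU in heterozygous mice and lower in unexposed heterozygous than wild type mice. Probe set 1438973_x_at did not pass in either heterozygous comparison (0.20, limma adjusted p = 0.267, and -0.32, 0.0641). The one that did not pass for PTU in homozygous mice was 1415801_at. In unexposed homozygous mice it read 7.68, 8.17 and 7.05, below every wild type array (8.63, 8.69 and 8.93), by -1.12 ± 0.27 (limma adjusted p = 0.0168), and in exposed homozygous mice 8.49 and 7.36. Its PTU difference in homozygous mice was 0.29 ± 0.30 (adjusted p = 0.398), and against exposed wild type it was lower (-0.85 ± 0.30, adjusted p = 0.0242) where 4 of the other 5 were higher.

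The 2 Gjc1 probe sets both passed as lower in unexposed heterozygous than wild type mice. Only 1449094_at passed as higher after PTU in heterozygous mice. They also parted in homozygous mice. Probe set 1447787_x_at read 8.59, 8.66 and 8.42 unexposed, below all wild type arrays (9.20, 9.33 and 9.32), by -0.73 ± 0.12 (limma adjusted p = 0.00495), and 9.30 and 9.39 exposed, level with exposed wild type (-0.03 ± 0.14). The brighter 1449094_at was 0.72 above exposed wild type. As the mean of all probe sets, Gja1 in exposed homozygous mice was 0.29 above wild type (limma adjusted p = 0.0421) and Gjc1 0.35 (0.012), in place of 0.74 and 0.72. The homozygous arrays, where probe sets of both genes parted, had the larger beta-actin 3′ minus 5′ difference, whose part was not tested. The heterozygous arrays, where probe sets of both genes also differed in their calls, did not have it.

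**Figure D4:**
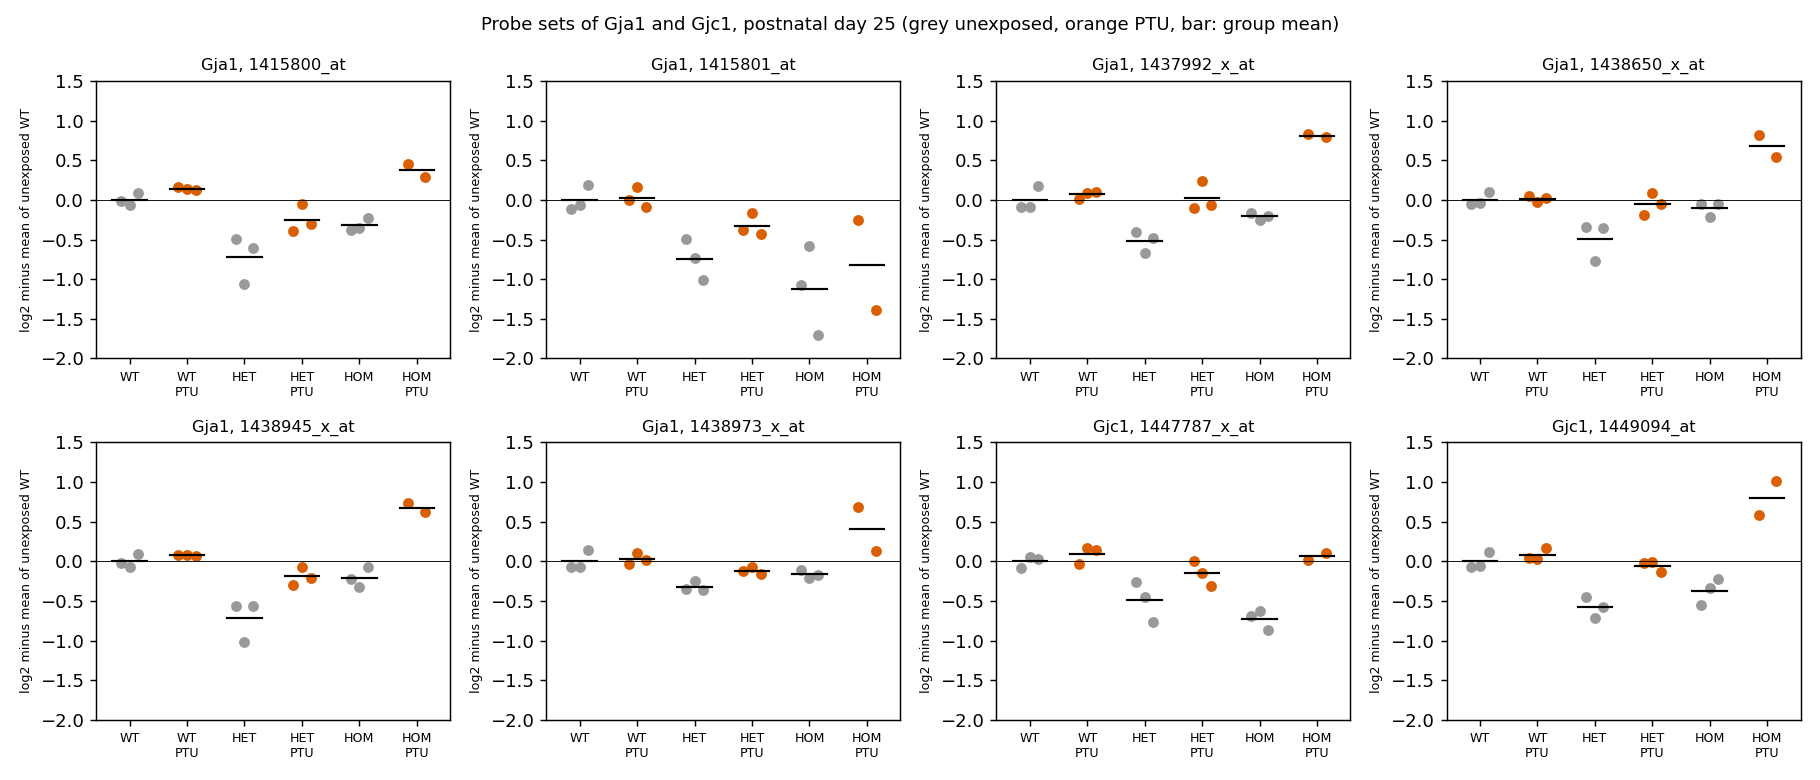
Each of the 6 Gja1 and 2 Gjc1 probe sets at day 25 (panels), as log2 level minus the mean of the 3 unexposed wild type arrays (vertical axis) by group (horizontal axis); points are arrays and bars group means. The exposed homozygous group has the highest mean on 5 Gja1 probe sets and on Gjc1 1449094_at, and both its arrays lie below the zero line on Gja1 1415801_at.

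Over the groups at day 25, on the brightest probe sets, the mean Gja1 order was exposed homozygous (12.13), exposed wild type (11.39), exposed heterozygous (11.35), unexposed wild type (11.33), unexposed homozygous (11.12) and unexposed heterozygous (10.80). The first and the last 2 steps had no overlap of arrays and the 3 groups between did overlap. Gjc1 had nearly the same order, from 10.48 in exposed homozygous through 9.76, 9.68 and 9.62 in exposed wild type, unexposed wild type and exposed heterozygous to 9.31 and 9.10 in unexposed homozygous and heterozygous mice. Panx2 read 3.80 to 4.34 in all 17 arrays, under the filter value, and was not tested.

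Of 16 other connexin and pannexin genes, 12 were on the day 15 arrays and 7 passed the filter. Gja6, a connexin gene of Sertoli cells, was lower after PTU on average (-0.70 ± 0.11, limma adjusted p = 7.2e-04), in wild type (-0.58 ± 0.19, 0.0488) and in homozygous mice (-0.76 ± 0.19, 0.0305). Gja3, a lens connexin and the neighbour of Gjb2, was higher in unexposed homozygous than wild type mice (0.31 ± 0.11, adjusted p = 0.0422). At day 25 7 of 10 were tested, and Gjd2, a neuronal connexin, was lower after PTU in homozygous mice (-0.37 ± 0.13, adjusted p = 0.017). In each of these comparisons the remaining 6 of 7 did not pass. Over all genes at day 15, 12% were called for the PTU average, 15.3% in wild type and 4.96% in homozygous mice. The genotype comparison had 28.9% called. For PTU in homozygous mice at day 25 it was 71.2%, so this list passed less often there than genes at large.

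Of 16 genes for connexin binding, trafficking and kinase partners, 13 were tested at day 15 and 12 at day 25. In unexposed homozygous mice at day 15, 4 were higher than in wild type and 0 lower: the tyrosine kinase Src (0.61 ± 0.11, limma adjusted p = 6.29e-04), the actin-binding Dbn1 (0.57 ± 0.11), the ubiquitin ligase Nedd4 (0.40 ± 0.09) and the kinase Prkce (0.31 ± 0.09). Over all genes 28.9% were called there, 14.6% higher. PTU in wild type raised 2 of the 13, Dbn1 (0.43 ± 0.11) and Nedd4 (0.33 ± 0.09), where 15.3% of all genes were called and 6.53% higher. The list's median was 0.19 in the genotype comparison, against 0.08 over all genes, and 0.22 against 0.03 for PTU.

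At day 25 PTU in homozygous mice had 5 of 12 partners higher and 4 lower, a count near the 71.2% of all genes called. The caveolar gene Cav1 (1.48 ± 0.13), the catenin Ctnnb1 (1.12 ± 0.13) and the zonula occludens scaffold Tjp1 (0.76 ± 0.10), which binds the tail of several connexins, rose. Cnst, for a protein that carries connexins to the membrane, fell (-1.05 ± 0.16, limma adjusted p = 3.50e-05). In wild type mice 0 of 12 passed at day 25, as did 0% of all genes.

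Among 22 genes of ATP and adenosine signalling and pannexin cleavage, 15 were tested at each age. PTU in homozygous mice at day 15 lowered 2 and raised 0, where 4.96% of all genes were called, namely the ecto-enzyme Nt5e, which makes adenosine (-0.73 ± 0.14, limma adjusted p = 0.00869), and the ATP receptor P2rx2 (-1.29 ± 0.32, adjusted p = 0.0274). At day 25 4 were higher and 5 lower in that comparison, where 71.2% of all genes were called. Nt5e (1.08 ± 0.13) and the ATP receptor P2rx4 (0.66 ± 0.11) were higher, and the ATP-cleaving Entpd1 (-2.34 ± 0.19) and the adenosine receptor Adora3 (-3.93 ± 0.53) lower. In unexposed homozygous mice at day 15 1 was higher (P2ry1, 0.44 ± 0.14) and 2 were lower (P2rx3, -0.44 ± 0.14, and Entpd1, -0.35 ± 0.11), where 28.9% of all genes were called. Wild type mice had 0 of 15 past the test for PTU at either age, with 15.3% of all genes called at day 15 and 0% at day 25.

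The genes whose pattern over the arrays was most like each member were taken as the 5 with the highest value of the smaller of the 2 Pearson correlations, over 18 arrays at day 15 and 17 at day 25 among 14281 genes tested at both ages. For Panx2 its own day 25 values were used, although it was not tested there. For Gja1 they were Poglut1 (0.92 and 0.95), Timm8a1 (0.92 and 0.92), Capn6 (0.92 and 0.95), Slc26a7 (0.95 and 0.92) and Gask1b (0.91 and 0.94). Without the exposed homozygous arrays, the day 25 correlations of these 5 were 0.79 to 0.91 over 15 arrays. Gjc1 was most like Rint1 (0.92 and 0.95), Suz12, Wsb1, Mms22l and Spata5, and Panx1 most like Cemip2 (0.95 and 0.94), Nanos1, Sema6d, Smo and Dusp9. For Panx1 the day 25 values fell to 0.68 to 0.78 without the exposed homozygous arrays.

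Likeness was weaker for the other members. The top gene was Fam189b for Gjb2 (0.78 and 0.85), Slc2a9 for Panx2 (0.84 and 0.80), Foxf1 for Gja4 (0.73 and 0.71, and 0.29 without the exposed homozygous arrays) and Tnpo2 for Gja5 (0.72 and 0.63, and 0.37 without those arrays). At day 25 Panx2 and Gja5 were above the filter value in 0 and 2 of 17 arrays, so their day 25 correlations are of values near the floor. All these correlations describe arrays that share groups, cell makeup and RNA quality, and carry no test.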

How the data were processed

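The values are the authors' deposited log2 intensities, made with RMA (robust multi-array averaging, which corrects background, normalizes between arrays and sums probes to probe sets) per the submitters' processing notes; an RMA version is not given in the sources used. They were used as deposited, and 0 columns of samples were left unused. Probe sets were named from the platform annotation, where 21789 of 35556 at day 15 and 34958 of 45101 at day 25 have 1 symbol, and the brightest probe set stood for a gene. Array medians lay at 7.02 to 7.12 at day 15 and 6.46 to 6.55 at day 25, and arrays of a group correlated at 0.98 or more. The precision is limited by the number of arrays, 2 or 3 in a group.

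The filter kept genes that in 2 or more arrays exceeded the 25th percentile of the values of that age, which was 5.56 for day 15 and 4.76 for day 25. They were fitted by age with limma 3.58.1 (R 4.3.3), 6 group means and 12 contrasts, with p-values adjusted by Benjamini-Hochberg over all genes of a contrast and a threshold of 0.05. The fit was also run on simulated data with independent noise and changes added to exposed wild type arrays only. That run does not bear on the group of 2 arrays or on unequal spread between groups. The members and gene lists were chosen with earlier results of these data known. Named genes are the 7 members, at most 4 genes of smallest p per pathway list in 4 of the contrasts, and the 5 genes most like each member. Genotype, exposure, age and array number come from the labels. Numbers were taken to pair arrays where all 3 same-numbered pairs had deviations correlated above 0.1. This held for PTU in heterozygous mice (0.39 to 0.44), exposed homozygous against wild type (0.14 to 0.56) and unexposed heterozygous against wild type (0.18 to 0.37) at day 15, and PTU in wild type at day 25 (0.23 to 0.40). Alternatives varied the filter, the probe set rule, the normalization, the groups fitted, array weights, a replicate block, array set, beta-actin as a covariate and the arrays left out. Values without the exposed homozygous arrays, the day 25 fit without arrays high in Spink8 and the fit within the first array set were added after seeing the data.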

Additional observations from a re-analysis of the deposited data

Results flagged for a closer look

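These 6 values are listed because a limma interaction test found that the PTU response differed between homozygous and wild type testes. At day 15 the difference of the responses was -0.59 for Gja1 and -0.64 for Gjb2, both lower in homozygous mice. At day 25 it was 0.95 for Gja1, 0.58 for Gjb2, 1.09 for Gjc1 and 0.85 for Panx1, all higher in homozygous mice. Gja1 and Gjb2 therefore have interactions of opposite sign at the 2 ages, which were measured on different array types, and the difference between ages was not tested. Each day 25 value rests on the 2 exposed homozygous arrays, and 59.4% of all genes passed the same test there.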

How the results depend on the processing

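Of 84 member values at day 15 9 were called, and 2 of these passed in every alternative (Gja1 and Panx1 in unexposed homozygous against wild type mice). Of 72 at day 25 27 were called and 13 passed in every alternative that gave a value. Values not called passed somewhere in 11 cases at day 15 and 12 at day 25. At day 15 the count of members called for PTU in wild type, 2 in the main analysis, was 4 with array weights, on the 2 groups alone and within the first array set, 0 without the arrays high in Spink8, and 0 to 3 without 1 array. For the PTU average, 0, it was 4 when arrays were weighted, 1 after quantile normalization or with the array set blocked, and 0 to 2 without 1 array. For unexposed homozygous against wild type, 3, it was 5 with array weights and 2 to 3 without 1 array. At day 25 PTU in homozygous mice had 3 in place of 6 with array weights and 4 to 6 without 1 array. Unexposed homozygous against wild type, 0, had 2 as the mean of probe sets, without the exposed homozygous arrays or without all arrays high in Spink8, 1 with array weights, the beta-actin covariate or a filter at the 50th percentile, and 0 to 2 without 1 array. Of the values that passed in the main analysis or an alternative, 0 of 20 at day 15 and 5 of 39 at day 25 changed sign somewhere, as did 28 of 64 and 7 of 33 that never passed. The 5 are as follows. Homozygous against wild type averaged over exposures gave -0.030 for Gja1 and -0.10 for Gjc1 as the mean of probe sets, -0.36 for Gjc1 and -0.39 for Panx1 with the beta-actin covariate, and -0.048 to 0.45 for Panx1 without 1 array, the first without exposed homozygous array 2 and the second without array 1. Exposed homozygous against wild type gave -0.050 for Panx1 with that covariate. The PTU average of Gjb2 was -0.020 without the exposed homozygous arrays. The cause was not tested. The beta-actin difference does not overlap between homozygous and wild type arrays, so the covariate fits cannot separate it from genotype. With the array number as a replicate block, members called went from 2 to 3 for PTU in wild type and from 3 to 2 for unexposed homozygous against wild type at day 15, and, at day 25, from 6 to 5 for PTU in homozygous mice (Gja4, adjusted p = 0.0506) and from 4 to 3 for both the PTU average (Gjb2, 0.0532) and the homozygous interaction (Gjb2, 0.0586). None of these is a comparison whose numbers were taken to pair the arrays. The block changed no call in the 4 comparisons where they were. It was fitted over all 6 groups of an age. These include PTU in homozygous mice at day 15, where same-numbered arrays had deviations correlated at -0.25 to -0.21. Quantile normalization moved the median of all genes by less than 0.1. Without all arrays high in Spink8, day 25 comparisons that use exposed homozygous mice gave no value. Signal limits what can be seen for Gja5 and Panx2 at day 25, which were above the filter value in 2 and 0 of 17 arrays.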
